A study of Mus musculus with 10 samples.

Results

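The genes described here are 4 secreted Wnt antagonists (Notum, Sfrp1, Sfrp2 and Wif1) and 6 genes commonly read as targets of canonical Wnt signalling (Axin2, Lef1, Nkd1, Sp5, Rnf43 and Znrf3). They were chosen by name, and all 10 were found among the 54532 genes of the deposited count table. All 10 were also among the 18898 genes that passed the low-count filter and were tested. The study profiled whole embryonic mouse pancreas by bulk RNA sequencing, to ask what loss of the secreted growth factor Fgf9 does during pancreas development. Embryos came from a line on the C57BL/6J background in which an inserted LacZ cassette disrupts Fgf9. E14.5 embryos labelled Fgf9 -/- gave 2 libraries, from pools of 4 and 3 pancreata, against 3 E14.5 control libraries from pools of 8, 7 and 6. E13.5 embryos labelled Fgf9 -/- gave 2 libraries, from pools of 7 and 6 pancreata, against 3 E13.5 control libraries from pools of 12, 7 and 12. Controls were littermates that mixed Fgf9 +/+ and Fgf9 +/- embryos, so some control embryos also lacked 1 intact copy. Nothing in the labels says that the pools were drawn from different litters, and p-values measure only the spread between these pools.

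Wnt ligands are lipid-modified secreted proteins that bind Frizzled receptors and Lrp5 or Lrp6 co-receptors, which stabilises beta-catenin and lets it act with Tcf/Lef factors on target genes. Antagonists act outside the cell. Notum is an enzyme that cleaves the lipid from Wnt proteins, Sfrp1 and Sfrp2 bind Wnts through a domain related to that of Frizzled, and Wif1 binds Wnts through a domain of its own. Most of the targets are themselves feedback regulators of the pathway, and their levels are widely read as a measure of its activity. In mouse pancreas, beta-catenin in the epithelium is needed for the acinar lineage to expand, and the surrounding mesenchyme is a source of Wnt ligands and antagonists.

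Promoter sequences of 3 of the genes are shown because they carry, or lack, the core motif bound by Tcf/Lef factors, through which canonical targets are read. The motif searched was CTTTGA on either strand (TCAAAG when read on the gene's strand), and its longer form CTTTGAT, which contains the shorter one. RefSeq windows on GRCm38.p6, each of 300 bases around an annotated start site, were given for 7 of the 10 genes, in 11 windows. Windows for Notum, Sfrp1 and Znrf3 were not used here. CTTTGA was in 16% and CTTTGAT in 3.73% of all 32851 windows of this length. Sp5 (chr2:70474673-70474972, plus strand) had CTTTGA starting 204 and 104 bases before its start site, and the nearer copy was CTTTGAT. Of the 4 Lef1 windows, the one at chr3:131156044-131156343 (plus strand) had TCAAAG starting 180 and 120 bases before the start site. Sfrp2 (chr3:83766071-83766370, plus strand) had neither form, and neither did the windows of Axin2, Wif1, Nkd1 and Rnf43. Capitals mark the motif, sequences run 5′ to 3′ on the gene's strand, and a match is a description of letters, not of a bound site.
Sp5: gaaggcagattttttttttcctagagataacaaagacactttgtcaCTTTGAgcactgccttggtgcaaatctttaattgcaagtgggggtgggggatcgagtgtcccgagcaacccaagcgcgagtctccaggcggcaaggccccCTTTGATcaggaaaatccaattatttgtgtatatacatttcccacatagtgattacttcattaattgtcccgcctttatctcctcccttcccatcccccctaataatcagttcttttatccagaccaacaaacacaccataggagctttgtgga
Lef1: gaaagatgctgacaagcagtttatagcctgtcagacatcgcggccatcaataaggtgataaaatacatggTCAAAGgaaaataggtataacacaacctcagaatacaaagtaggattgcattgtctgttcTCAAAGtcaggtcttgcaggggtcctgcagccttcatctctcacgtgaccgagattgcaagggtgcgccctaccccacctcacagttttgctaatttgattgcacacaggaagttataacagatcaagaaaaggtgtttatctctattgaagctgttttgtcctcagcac
Sfrp2: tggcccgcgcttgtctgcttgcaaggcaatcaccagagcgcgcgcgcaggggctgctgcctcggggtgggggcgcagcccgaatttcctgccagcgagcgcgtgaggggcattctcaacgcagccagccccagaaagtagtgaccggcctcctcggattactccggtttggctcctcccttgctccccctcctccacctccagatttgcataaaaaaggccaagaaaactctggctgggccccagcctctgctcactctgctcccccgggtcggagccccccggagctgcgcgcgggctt

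Libraries held 17736769 to 22798257 counts. Fgf9 itself was at 11.7 and 6.14 CPM (read counts put on a common scale by TMM library factors) in E14.5 null-labelled libraries, against 13.6, 8.76 and 6.96 in E14.5 controls. At E13.5 it was at 5.57 and 7.66 CPM in null-labelled libraries, against 18.4, 11.3 and 16.2 in controls. Neither difference passed the test (log2 fold change -0.14, SE 0.35, edgeR adjusted p = 0.957 at E14.5, and -1.21, SE 0.36, edgeR adjusted p = 0.293 at E13.5). A gene count does not show what the insertion leaves of the transcript, so the groups are called null-labelled throughout. The null-labelled libraries numbered 1 stood apart in muscle content: the summed level of 7 skeletal muscle genes was 221 CPM in E14.5 null 1 and 84.8 CPM in E13.5 null 1, against 29.5 and 28.4 CPM in the null-labelled libraries numbered 2. E14.5 and E13.5 controls held 8.91 to 19.7 and 14.2 to 20.03 CPM of these genes. The summed level of 8 liver genes was also higher. It was 584 to 616 CPM in E14.5 null-labelled libraries against 390 to 450 CPM in controls. At E13.5 it was 535 to 592 CPM in null-labelled libraries against 330 to 452 CPM in controls. Of these genes Alb, Afp, Apoa1, Apoa2 and Ahsg lay above all controls at both stages. Ttr, a large part of the sum, overlapped at both stages, and Serpina1a and Fgb overlapped at E13.5. Genes of stomach and intestine were low, and their sum over 7 genes was 6.79 to 13.8 CPM in E14.5 null-labelled libraries against 1.95 to 2.71 CPM in controls, and 2.41 to 3.23 CPM in E13.5 null-labelled libraries against 0.978 to 2.001 CPM in controls. Of these 7, Tff1 was at 0 in all 10 libraries, and Gkn1 and Gkn2 were at 0 to 0.286 CPM. Single genes did not all follow the sum. Cdx2 was at 3.80 CPM in E14.5 null 1 and at 0 in E14.5 null 2. Sox2 was at 3.91 and 0.749 CPM in these libraries, against 0.953, 0.173 and 0.111 CPM in E14.5 controls. At E13.5 Sox2 lay above all controls (2.04 and 3.06 CPM, against 0.524 to 0.978 CPM). Summed endothelial markers were at 444 to 504 CPM in E14.5 null-labelled libraries against 405 to 425 CPM in controls. At E13.5 they were at 527 to 593 CPM against 378 to 438 CPM. Summed neural and glial markers were at 202 to 344 CPM in E13.5 null-labelled libraries against 124 to 163 CPM in controls, and overlapped at E14.5. Some genes of both lists overlapped at each stage. The part of muscle, liver, gut, endothelial and neural RNA in the results was not tested. Values without both libraries numbered 1 are therefore given beside the main results. The pancreatic epithelial markers Pdx1 and Ptf1a were detected in every library.

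Notum was lower in null-labelled pancreas. Its level was 3.85 and 4.79 CPM in E14.5 null-labelled libraries, against 8.18, 10.1 and 6.57 CPM in E14.5 controls. In E13.5 null-labelled libraries it was 2.68 and 2.62 CPM, against 7.82, 9.10 and 7.45 CPM in E13.5 controls. Every null-labelled library lay below every control library of either stage. At E13.5 Notum fell 3.06-fold (log2 fold change -1.61, SE 0.28, edgeR adjusted p = 0.0344), and it was the 1 gene called of the 10, where 0.307% of all genes tested were called. Under an unadjusted p of 0.05 it was 1 of 2, with Sfrp2, where 6.56% of genes tested were. At E14.5 the estimate was 1.91-fold lower (-0.94, SE 0.27, edgeR adjusted p = 0.235) and did not pass. Over the mean of both stages Notum fell 2.42-fold (-1.27, SE 0.19, edgeR adjusted p = 0.00655). The difference between the stages was 0.68 on the log2 scale, with a 95% interval from -0.14 to 1.497, and did not pass (edgeR adjusted p = 1). With the replicate number as a block, which is taken to pair null-labelled and control pools, the E14.5 difference was called as well (-1.08, edgeR adjusted p = 0.0441). That pairing rests on thin evidence.

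The E13.5 call for Notum rested on few libraries. It was lost with limma-voom (adjusted p = 0.0629) and without any 1 of the 5 E13.5 libraries or E14.5 control 2 (edgeR adjusted p = 0.0518 to 0.332), while the log2 fold change stayed between -1.67 and -1.54. Over all 17 alternatives its adjusted p ran from 3.14e-05 to 0.332, and 9 of them made the call. Without both null-labelled libraries numbered 1 the mean of both stages was -1.21 (edgeR adjusted p = 0.0783), against 2.9e-07 to 0.0783 over its 16 alternatives. Notum lies on chromosome 11 (120653788 to 120661175, minus strand, GRCm38), and the antisense gene Notumos overlaps it. Notumos had 6 to 31 counts per library, against 50 to 191 for Notum, and their reads cannot be told apart without a strand setting, which is not given in the sources used here.

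Genes of spleen-forming mesenchyme moved with Notum. Of 8 such markers, 3 fell at E14.5 and 4 at E13.5, where 0.111% and 0.307% of all genes tested were called, among them Tlx1, a homeobox factor needed for the spleen, at 0.482 and 0.0861 CPM in E13.5 null-labelled libraries against 17.9, 15.4 and 19.0 CPM in controls. Their summed level was 295 to 374 CPM in E14.5 null-labelled libraries against 321 to 485 CPM in controls, and 416 to 451 CPM in E13.5 null-labelled libraries against 503 to 632 CPM in controls. At each stage 3 fell when both null-labelled libraries numbered 1 were left out. Leaving out 1 library gave 1 to 3 at E14.5, with 1 without E14.5 control 2 or control 3, and 2 to 5 at E13.5, with 2 without E13.5 null 1, null 2, control 1 or control 2 or E14.5 control 2. The part of this in the Notum result was not tested. In counts of whole pooled organs, fewer cells of a type and less RNA per cell cannot be told apart. Set against 1000 CPM of 10 pancreatic mesenchyme markers, Notum was at 0.281 and 0.535 CPM in E14.5 null-labelled libraries, against 0.926, 1.49 and 1.196 CPM in controls. On the same scale it was at 0.289 and 0.335 CPM in E13.5 null-labelled libraries, against 1.17, 1.35 and 1.23 CPM in controls. The sum of these markers was itself higher in null-labelled libraries. It was led by the collagens Col3a1, Col1a1 and Col1a2, which lay above all controls at both stages, so the scale follows mainly collagen RNA. Tcf21 lay above all controls at both stages and Vim at E14.5. Pdgfra, Pdgfrb and Foxf1 overlapped at both stages, and Barx1 and Nkx3-2 lay below. Like Notum, Sfrp1, Axin2, Lef1, Nkd1 and Znrf3 lay below all controls of their stage on this mesenchyme marker scale. Axin2 was then at 2.99 and 3.21 CPM in E14.5 null-labelled libraries, against 4.78, 5.26 and 4.87 CPM in controls. Without the scaling, the groups of Sfrp1, Axin2 and Lef1 overlapped at both stages. The share of all genes tested that lay below the controls on this scale was not computed. Against 1000 CPM of 10 epithelial markers the E14.5 groups overlapped for Notum (0.690 and 1.15 CPM, against 0.946 to 1.92 CPM). Its E13.5 groups did not (0.718 and 0.990 CPM, against 1.90 to 3.22 CPM).

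Sfrp2 was higher in null-labelled pancreas. It was at 193 and 98.4 CPM in E14.5 null-labelled libraries, against 86.3, 66.3 and 53.7 CPM in E14.5 controls. At E13.5 the level was 116 and 121 CPM in null-labelled libraries, against 61.4, 64.1 and 57.5 CPM in controls. The groups did not overlap at either stage, although E14.5 null 2 and E14.5 control 1 lay close together. Over the mean of both stages Sfrp2 rose 2.03-fold (log2 fold change 1.02, SE 0.17, edgeR adjusted p = 0.00968). Notum and Sfrp2 were the 2 genes of the 10 called in this comparison, where 1.87% of all genes tested were called. Single stages did not pass, at 2.12-fold higher at E14.5 (1.08, SE 0.24, edgeR adjusted p = 0.117) and 1.94-fold higher at E13.5 (0.96, SE 0.24, edgeR adjusted p = 0.164). The difference between the stages was 0.12, with a 95% interval from -0.62 to 0.87 (edgeR adjusted p = 1).

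With the replicate block Sfrp2 was called at both stages, at 0.87 at E14.5 (edgeR adjusted p = 0.00108) and 0.92 at E13.5 (edgeR adjusted p = 0.000434). The block leaves fewer degrees of freedom than the main fit and rests on a pairing with thin evidence. Control 3 of each stage has no null-labelled partner, so under the block it adds nothing to the estimated genotype difference. DESeq2 called both stages as well, at adjusted p = 0.00366 and 0.0157. Over 17 alternatives each, adjusted p ran from 1.37e-09 to 0.829 for Sfrp2 at E14.5 and from 2.14e-07 to 0.759 at E13.5, with 5 and 6 of them calling it. Without both null-labelled libraries numbered 1, the Sfrp2 mean was 0.75 and did not pass (edgeR adjusted p = 0.0638, the highest of 16 alternatives that began at 5.06e-18). Sfrp2 lies on chromosome 3 (83766321 to 83774316, plus strand), and the antisense gene Gm26771 there had 2 to 19 counts per library.

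Some smooth muscle genes rose beside Sfrp2, and the summed level of mesenchyme markers was higher. The summed level of the 10 mesenchyme markers, led by the collagens Col3a1, Col1a1 and Col1a2, was 8956 to 13728 CPM in E14.5 null-labelled libraries, against 5494 to 8831 CPM in controls. In E13.5 null-labelled libraries it was 7828 to 9271 CPM, against 6077 to 6730 CPM in controls. In the mean of both stages 2 of these 10 markers were called, both lower (the homeobox factors Barx1 and Nkx3-2, which are also on the spleen list), while 4 of 6 smooth muscle markers rose, Acta2, Actg2, Myh11 and Cnn1, where 1.87% of all genes tested were called. Of the 6 smooth muscle markers 2 rose with limma-voom, without E13.5 null 1 alone, and without both null-labelled libraries numbered 1. At single stages 2 of the 6 rose at E14.5 and 1 at E13.5, where 0.111% and 0.307% of all genes tested were called. Without both null-labelled libraries numbered 1 it was 0 at E14.5 and 1 at E13.5. Des, also on this list, was at 56.0 and 57.6 CPM in E13.5 null-labelled libraries, against 78.3, 84.4 and 74.8 CPM in controls. Its E14.5 groups overlapped. With the replicate block 5 of the 10 mesenchyme markers rose as well, as did 5 on leaving out E14.5 null 2, and 4 with DESeq2 or on leaving out E14.5 control 1. Summed smooth muscle markers were at 234 to 480 CPM in E14.5 null-labelled libraries against 113 to 162 CPM in controls, and at 195 to 234 CPM in E13.5 null-labelled libraries against 119 to 141 CPM in controls. Per 1000 CPM of mesenchyme markers, Sfrp2 was at 14.04 and 10.99 CPM in E14.5 null-labelled libraries, against 9.78, 9.80 and 9.77 CPM in controls. At E13.5 the same measure was 12.5 and 15.5 CPM in null-labelled libraries, against 9.15, 9.52 and 9.46 CPM in controls. On this scale too no null-labelled library overlapped the controls of its stage. Per 1000 CPM of the 10 epithelial markers, however, the E14.5 groups overlapped for Sfrp2 (57.8 and 14.2 CPM, against 7.72 to 20.3 CPM). The E13.5 groups did not overlap on that scale (42.7 and 33.1 CPM, against 14.6 to 25.3 CPM). The part of smooth muscle in the Sfrp2 result was not tested.

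**Figure D1:**
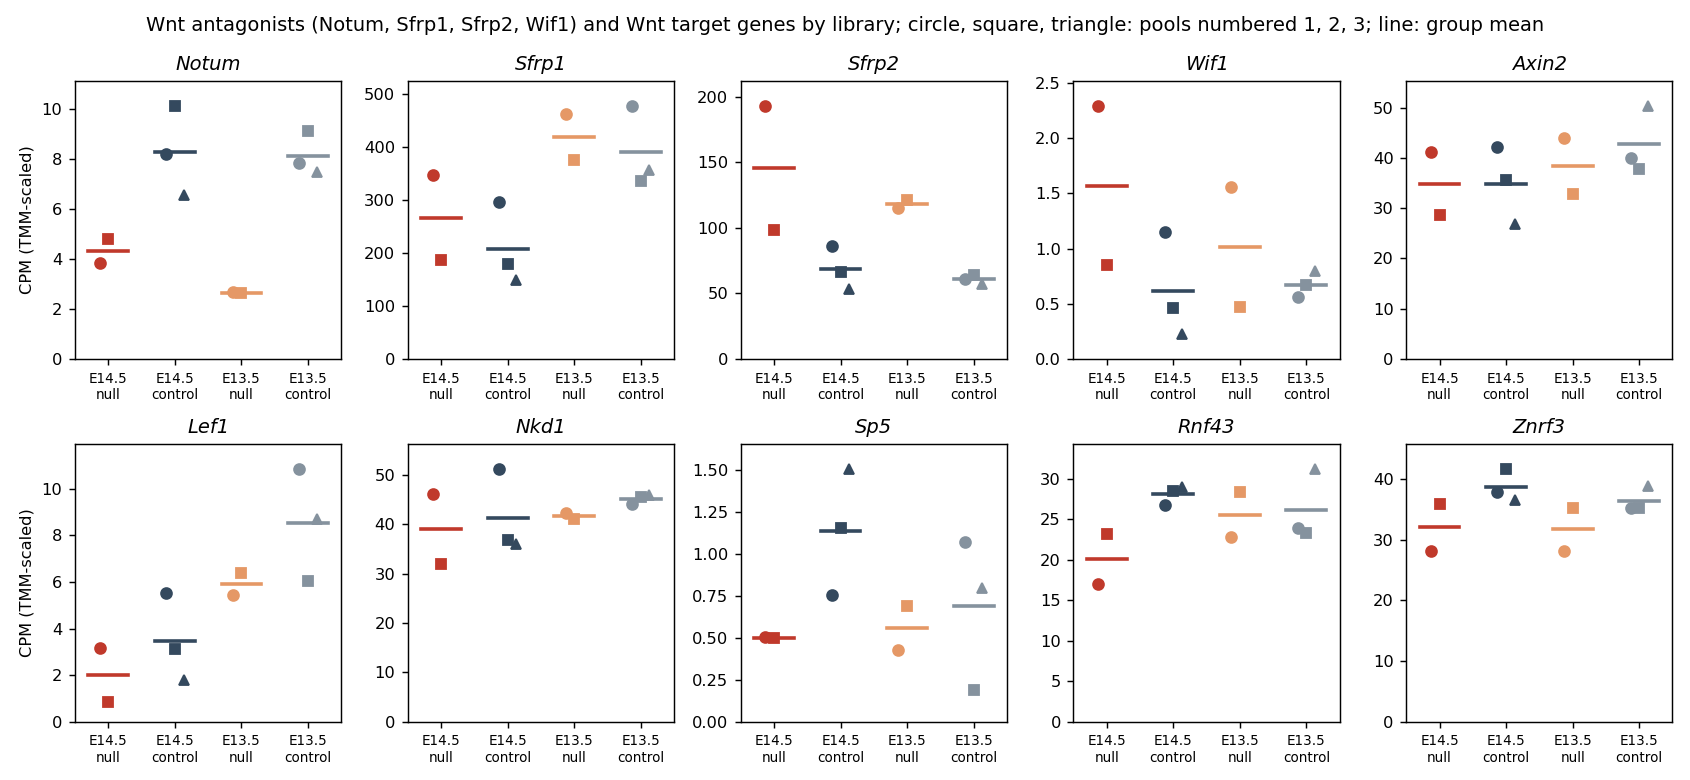
Level of each of the 10 genes in every library, in TMM-scaled CPM on a linear axis from 0, with groups from left to right E14.5 null, E14.5 control, E13.5 null and E13.5 control; symbols give the pool number and lines the group mean. Notum is 2.62 to 4.79 CPM in null-labelled libraries and 6.57 to 10.1 CPM in controls, and Sfrp2 is 98.4 to 193 CPM in null-labelled libraries and 53.7 to 86.3 CPM in controls.

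Sfrp1, a close relative of Sfrp2, was not called in any genotype comparison. It was at 347 and 188 CPM in E14.5 null-labelled libraries, against 297, 180 and 149 CPM in E14.5 controls. E13.5 null-labelled libraries had 463 and 376 CPM, against 478, 337 and 358 CPM in controls. The groups overlapped at both stages. The log2 fold change was 0.36 at E14.5 (edgeR adjusted p = 0.834) and 0.10 at E13.5 (edgeR adjusted p = 1), and in the mean of both stages its 95% interval ran from -0.22 to 0.68. The sign of the Sfrp1 mean turned without both null-labelled libraries numbered 1 (-0.10). Whether Sfrp1 and Sfrp2 differ in their response was not tested.

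Wif1 was near the lower limit of what could be measured, with 4 to 41 counts per library. It was at 2.29 and 0.849 CPM in E14.5 null-labelled libraries, against 1.15, 0.461 and 0.223 CPM in E14.5 controls. At E13.5 it was at 1.55 and 0.473 CPM in null-labelled libraries, against 0.559, 0.667 and 0.795 CPM in controls. Null 1 lay above every control library of its stage, and null 2 lay within the control range at E14.5 and below it at E13.5. The mean of both stages was 0.95 (SE 0.56, edgeR adjusted p = 0.568), with a 95% interval from -0.27 to 2.18, and it was -0.02 without both null-labelled libraries numbered 1.

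None of the 6 target genes passed in either stage or in their mean. All 6 had a negative log2 fold change in the mean of both stages, with a median of -0.25 against -0.02 over all genes tested, and 1 of the 6 was under an unadjusted p of 0.05, where 12% of all genes tested were. DESeq2 and limma-voom likewise called 0 of the 6 in each of these comparisons. At E14.5 edgeR called 0 of all 10 genes, where 0.111% of genes tested were called, 3 of the 10 were under an unadjusted p of 0.05 (8.54% of genes tested), DESeq2 called 1 (Sfrp2) and limma-voom 0. Groups did not overlap for 5 of the 10 at E14.5 and for 4 of the 10 at E13.5, where 23.7% and 23.6% of all genes tested did not overlap.

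Axin2, a scaffold of the complex that degrades beta-catenin, was at 41.1 and 28.7 CPM in E14.5 null-labelled libraries, against 42.2, 35.6 and 26.8 CPM in controls. At E13.5 it was at 43.9 and 32.8 CPM in null-labelled libraries, against 40.1, 37.8 and 50.2 CPM in controls. The groups overlapped at both stages. The mean difference was -0.08 with a 95% interval from -0.42 to 0.26. Nkd1, an inhibitor of Dishevelled, was at 46.2 and 32.0 CPM in E14.5 null-labelled libraries, against 51.2, 36.8 and 36.0 CPM in controls. E13.5 null-labelled libraries had 42.3 and 41.0 CPM, against 44.1, 45.5 and 45.9 CPM in controls, so that the E13.5 groups did not overlap although they differed by little. The Nkd1 mean difference was -0.10 (95% interval -0.38 to 0.18, edgeR adjusted p = 0.849).

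Rnf43 and Znrf3 are membrane ubiquitin ligases that remove Frizzled receptors from the cell surface. Rnf43 was at 17.0 and 23.2 CPM in E14.5 null-labelled libraries, against 26.8, 28.5 and 28.9 CPM in controls. At E13.5 it was at 22.8 and 28.3 CPM in null-labelled libraries, against 24.0, 23.3 and 31.2 CPM in controls. The groups were apart at E14.5 (log2 fold change -0.48, SE 0.19, unadjusted p = 0.0248, edgeR adjusted p = 0.459) and overlapped at E13.5 (-0.03). Znrf3 was at 28.2 and 36.0 CPM in E14.5 null-labelled libraries, against 37.8, 41.7 and 36.6 CPM in controls, and at 28.2 and 35.3 CPM in E13.5 null-labelled libraries, against 35.3, 35.3 and 38.9 CPM in controls. All 4 null-labelled libraries lay below the controls of their stage, E13.5 null 2 by almost nothing. The Znrf3 mean difference was -0.23 (SE 0.11, edgeR adjusted p = 0.416).

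Lef1 and Sp5 are transcription factors of the pathway, Lef1 as a partner of beta-catenin on DNA and Sp5 as a zinc finger factor induced by it. Lef1 was at 3.18 and 0.849 CPM in E14.5 null-labelled libraries, against 5.52, 3.11 and 1.78 CPM in controls. E13.5 null-labelled libraries had 5.46 and 6.37 CPM, against 10.9, 6.05 and 8.70 CPM in controls. Both stages overlapped, and the mean difference was -0.66 with a wide 95% interval from -1.48 to 0.15 (edgeR adjusted p = 0.544). Sp5, which has 2 motif copies in its promoter window as Lef1 has at 1 internal start site, had only 4 to 27 counts per library. It was at 0.502 and 0.499 CPM in E14.5 null-labelled libraries, against 0.753, 1.15 and 1.503 CPM in controls, and at 0.428 and 0.688 CPM in E13.5 null-labelled libraries, against 1.07, 0.191 and 0.795 CPM in controls. The E14.5 groups did not overlap and the E13.5 groups did. The mean difference was -0.73, and at this depth its 95% interval spans -1.95 to 0.50 (edgeR adjusted p = 0.7).

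**Figure D2:**
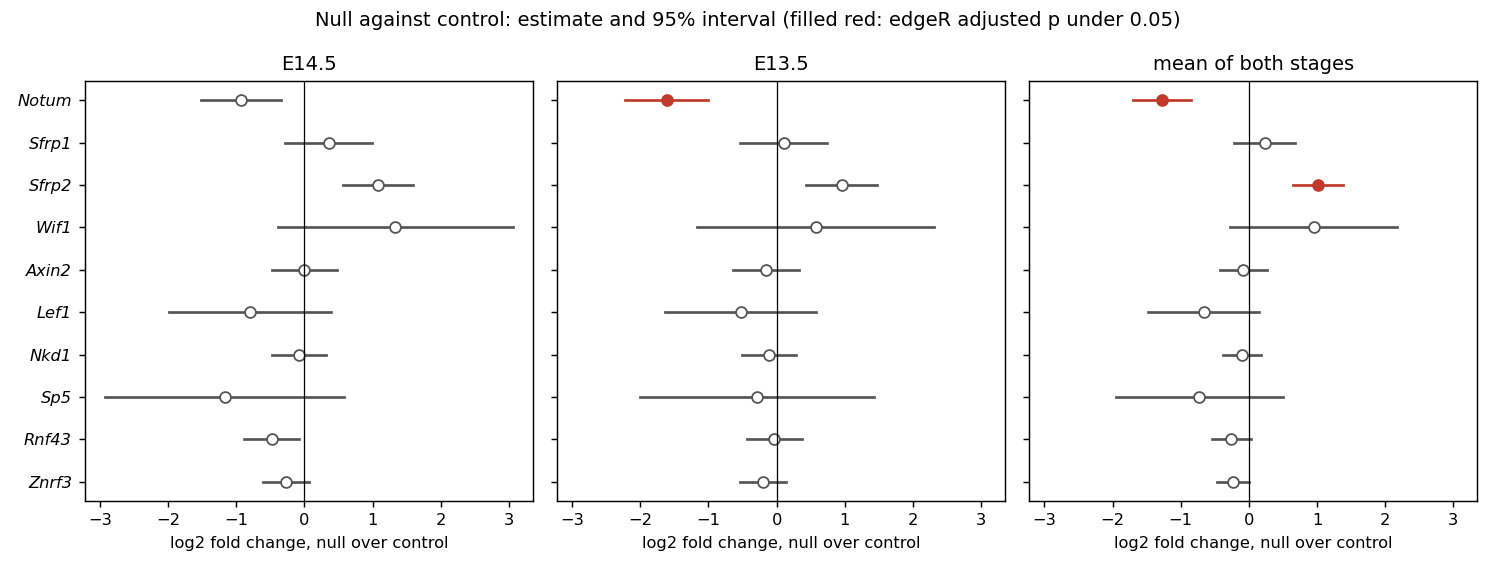
Log2 fold change of null-labelled over control libraries for each gene at E14.5, at E13.5 and in the mean of both stages, with 95% intervals as lines; filled red points passed an edgeR adjusted p of 0.05. Notum passed at E13.5 and in the mean, Sfrp2 in the mean, and the intervals of Wif1, Lef1 and Sp5 are the widest.

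Per base of transcript the antagonists spanned the whole range of the set. In E14.5 controls the mean CPM per kilobase was 47.7 for Sfrp1, 31.9 for Sfrp2, 9.07 for Nkd1, 6.33 for Axin2, 4.90 for Znrf3, 4.28 for Rnf43, 3.44 for Notum, 0.541 for Sp5, 0.395 for Lef1 and 0.252 for Wif1. E13.5 controls had the same order down to Notum, with Sfrp1 at 89.4 and Notum at 3.37, followed by Lef1 at 0.971, Sp5 at 0.326 and Wif1 at 0.278. Neighbours whose ranges of mean ± SD overlapped in E14.5 controls were Sfrp1 (SD 17.9) and Sfrp2 (SD 7.65), Nkd1 (SD 1.87) and Axin2 (SD 1.40), Axin2 and Znrf3 (SD 0.338), Rnf43 (SD 0.175) and Notum (SD 0.732), and Sp5 (SD 0.179), Lef1 (SD 0.216) and Wif1 (SD 0.199). In null-labelled libraries Sfrp2 was at 67.6 ± 31.0 at E14.5 and 55.0 ± 1.81 at E13.5 (SD, n = 2 each), beside 61.1 ± 25.8 and 96.0 ± 14.03 for Sfrp1. On this scale the level of Notum in null-labelled libraries was 1.79 ± 0.277 at E14.5 and 1.101 ± 0.0156 at E13.5 (SD, n = 2 each).

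Between the stages, Sfrp1 and Lef1 had the largest estimates in controls, both negative for E14.5 over E13.5. Sfrp1 was at 149 to 297 CPM in E14.5 controls, against 337 to 478 CPM in E13.5 controls, a log2 fold change of -0.91 (SE 0.27, edgeR adjusted p = 0.113). Lef1 was at 1.78 to 5.52 CPM in E14.5 controls, against 6.05 to 10.9 CPM in E13.5 controls, a log2 fold change of -1.29 (SE 0.46, edgeR adjusted p = 0.189). These 2 were the genes of the 10 whose stages did not overlap in controls, where 20.5% of all genes tested did not overlap. By edgeR 0 of the 10 were called between the stages in controls, where 1.12% of genes tested were called; 2 were under an unadjusted p of 0.05 (15.5% of genes tested), DESeq2 called 1 (Sfrp1, adjusted p = 0.0134) and limma-voom 0. Without E14.5 control 1 both were called, Sfrp1 at -1.25 (edgeR adjusted p = 0.0106) and Lef1 at -1.80 (edgeR adjusted p = 0.0467); over 17 alternatives adjusted p ran from 1.64e-08 to 0.46 for Sfrp1 and from 0.00439 to 0.555 for Lef1.

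In null-labelled libraries the same genes had negative estimates for E14.5 over E13.5, with a log2 fold change of -0.65 for Sfrp1 (SE 0.32, edgeR adjusted p = 0.401) and -1.56 for Lef1 (SE 0.59, edgeR adjusted p = 0.261). Notum was at 3.85 and 4.79 CPM in E14.5 null-labelled libraries, against 2.68 and 2.62 CPM in E13.5 null-labelled libraries (0.71, SE 0.30, edgeR adjusted p = 0.318). In controls the Notum stage difference was 0.03 (SE 0.23). Stages did not overlap for 3 of the 10 genes in null-labelled libraries, where 42.6% of all genes tested did not overlap. By edgeR 0 of the 10 were called, where 0.249% of genes tested were called; 2 were under an unadjusted p of 0.05 (13.8% of genes tested), and DESeq2 and limma-voom called 0. For the difference of the genotype effect between stages edgeR called 0 of the 10, and 0% of all genes tested. Under an unadjusted p of 0.05 were 0 of the 10 and 2.4% of genes tested, and DESeq2 called 0 of the 10 and 4 genes in all.

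At E14.5, 6 of the genes deviated from their group means in the same libraries. On the log2(CPM + 0.5) scale, Sfrp1, Sfrp2, Wif1, Axin2, Lef1 and Nkd1 were all above their group mean in E14.5 null 1 (by 0.26 for Axin2 to 0.72 for Lef1) and in E14.5 control 1 (by 0.30 for Axin2 to 0.71 for Lef1). The same 6 were all below it in E14.5 control 3, from -0.18 for Nkd1 to -0.69 for Lef1. Rnf43 and Znrf3 lay below their group mean in E14.5 null 1, by -0.22 and -0.17, and Notum by -0.14. With 2 libraries in a null-labelled group, its null 1 and null 2 deviations mirror each other. E14.5 null 1 and E14.5 control 1 were also the libraries of their groups with the most mesenchyme marker signal and the least epithelial marker signal: epithelial markers summed to 3337 CPM in E14.5 null 1 against 6946 CPM in E14.5 null 2, and to 4261 CPM in E14.5 control 1 against up to 7747 CPM in the other E14.5 controls. Cpa1 was the largest part of the epithelial sum, at 1683 CPM in E14.5 null 1 and 2192 CPM in E14.5 control 1. In E14.5 control 1, Sox9 (130.2 CPM, against 115.6 and 122.5 CPM) and Nkx6-1 (131.6 CPM, against 115.1 and 131.2 CPM) were not lowest among the controls, while the other epithelial markers were. The part of this mix in the spread was not tested. At E13.5 the same 6 genes had mixed signs. In E13.5 null 1, Wif1 lay above its group mean by 0.54 and Sfrp1 by 0.15, while Lef1 was at -0.10. In E13.5 control 1, Lef1 lay above its group mean by 0.37 while Wif1 was at -0.14. The deviations of Sfrp2 and Nkd1 at E13.5 were small, -0.08 to 0.07, in all 5 libraries.

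**Figure D3:**
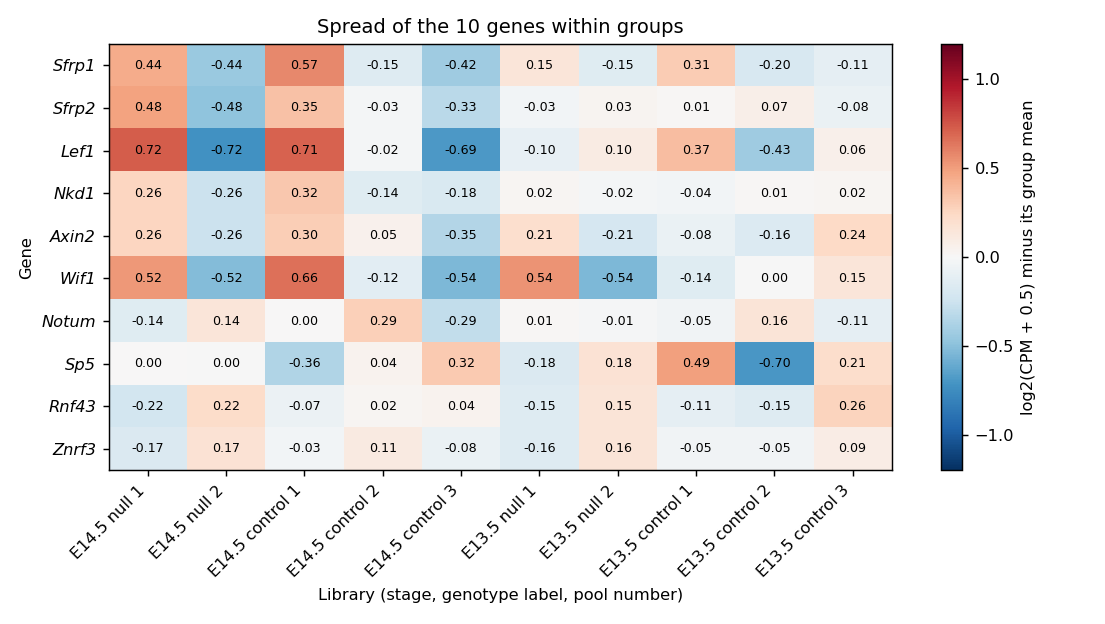
Deviation of each gene from its group mean in every library, as log2(CPM + 0.5) minus the mean of its group, red above and blue below; columns are libraries and rows genes. The first 6 rows are red in E14.5 null 1 and E14.5 control 1, Lef1 reaching 0.72 and 0.71, and blue in E14.5 control 3.

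Pools of the same number gave 4 pairs of null-labelled and control libraries. For Notum, Sfrp2 and Znrf3 the groups did not overlap at either stage, so the direction of every pair was already fixed. Those directions add no evidence. Notum was lower in 4 of 4 pairs, with log2 differences from -1.62 to -0.996, and Sfrp2 was higher in 4 of 4, from 0.57 to 1.15. Nkd1 and Znrf3 were also lower in 4 of 4 pairs, by -0.20 to -0.06 for Nkd1 and by -0.42 to -0.00056 for Znrf3, where 1 pair was close to 0. For the other 6 genes at least 1 pair had the opposite sign.

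The other genes of the pathway were taken from 7 lists of 98 genes, of which 88 were tested. In the mean of both stages 3 rose and 2 fell, or 5 of 88 called where 1.87% of all genes tested were called, and the median log2 fold change of the 88 was 0.04 against -0.02 over all genes. At E13.5 the 1 called was Wnt5a, where 0.307% of all genes tested were called. At E14.5 edgeR called 0 of the 88 (0.111% of all genes tested), with 18 under an unadjusted p of 0.05 (8.54% of all genes tested), while DESeq2 called 3 and limma-voom 0. With the replicate block 5 were called at E14.5, 10 at E13.5 and 15 in the mean, and without both null-labelled libraries numbered 1 Wnt5a was the 1 of the 5 still called in the mean, with Tbx3 called in addition.

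Among 11 ligands tested, 2 fell in the mean of both stages. Wnt5a, a ligand best known for signalling without beta-catenin, was at 9.49 to 15.5 CPM in E14.5 null-labelled libraries against 26.8 to 36.8 CPM in controls, and at 8.78 to 10.6 CPM in E13.5 null-labelled libraries against 53.3 to 78.4 CPM in controls. It fell 4.13-fold in the mean (edgeR adjusted p = 0.000197), and without both null-labelled libraries numbered 1 its log2 fold change was -2.18 (edgeR adjusted p = 0.000972). Wnt2b, a ligand of mesenchyme, fell 1.73-fold (edgeR adjusted p = 0.045), with levels of 22.6 to 35.1 CPM in E14.5 null-labelled libraries against 29.8 to 51.7 CPM in controls. The Wnt2b call was lost without both null-labelled libraries numbered 1 (-1.03, edgeR adjusted p = 0.068) and without any 1 of the 5 E13.5 libraries, E14.5 null 2 or E14.5 control 2, and over 16 alternatives its adjusted p ran from 1.11e-07 to 0.186. Per kilobase of transcript, the most abundant ligands that did not pass were Wnt7b (mean log2 fold change 0.01, edgeR adjusted p = 0.989) and Wnt5b (0.04, edgeR adjusted p = 0.961). The Wnt5b mean joins estimates of opposite sign, 0.56 at E14.5 (edgeR adjusted p = 0.407) and -0.48 at E13.5 (edgeR adjusted p = 0.699), and its groups did not overlap at either stage. The difference between these, 1.04, did not pass (unadjusted p = 0.0036, edgeR adjusted p = 1).

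Of 16 receptors and co-receptors 2 rose, Fzd1 by 1.69-fold (edgeR adjusted p = 0.00666) and Fzd7 by 1.43-fold (edgeR adjusted p = 0.0394), both Frizzled receptors. Fzd1 was at 73.7 to 82.8 CPM in E14.5 null-labelled libraries against 41.3 to 57.1 CPM in controls, and at 89.8 to 105 CPM in E13.5 null-labelled libraries against 53.3 to 65.2 CPM in controls. Both calls were lost without both null-labelled libraries numbered 1, at 0.65 for Fzd1 (edgeR adjusted p = 0.0924, the highest of 16 alternatives that began at 3.5e-09) and 0.33 for Fzd7 (edgeR adjusted p = 0.349, the highest of 16 that began at 0.000204). The Fzd7 call was also lost without any 1 of the 5 E13.5 libraries, E14.5 null 1, E14.5 control 2 or E14.5 control 3. Ptk7 and Fzd2, the most abundant of the list per kilobase, had mean log2 fold changes of -0.13 and 0.13 and did not pass.

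Of 15 other antagonists 1 rose, Trabd2b, which encodes a membrane protease that cleaves Wnt proteins. Trabd2b was at 5.19 to 6.14 CPM in E14.5 null-labelled libraries against 1.56 to 2.13 CPM in controls, and at 7.83 to 8.73 CPM in E13.5 null-labelled libraries against 3.12 to 3.33 CPM in controls, 2.76-fold higher in the mean (edgeR adjusted p = 0.00323). The Trabd2b mean without both null-labelled libraries numbered 1 was 1.36 on the log2 scale and did not pass (edgeR adjusted p = 0.0595, the highest of 16 alternatives that began at 6.6e-09). Igfbp4 and Kremen1, the most abundant of that list per kilobase, had mean log2 fold changes of 0.17 and -0.03 and did not pass. Of 13 other canonical targets reported, edgeR called 0 in the mean, with 4 under an unadjusted p of 0.05 where 12% of all genes tested were, while DESeq2 called 1 (Tbx3) and limma-voom 0. The cell cycle gene Ccnd1 and the growth regulator Myc had mean log2 fold changes of -0.15 and -0.16 and did not pass. In the R-spondin and Lgr, secretion and transduction lists together edgeR called 0 of 33 genes in the mean, with 5 under an unadjusted p of 0.05, a share near the 12% of all genes tested. Among them Lgr4, Rspo1, Wls, Porcn, Csnk1a1 and the beta-catenin gene Ctnnb1 had mean log2 fold changes between -0.14 and 0.16.

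**Figure D4:**
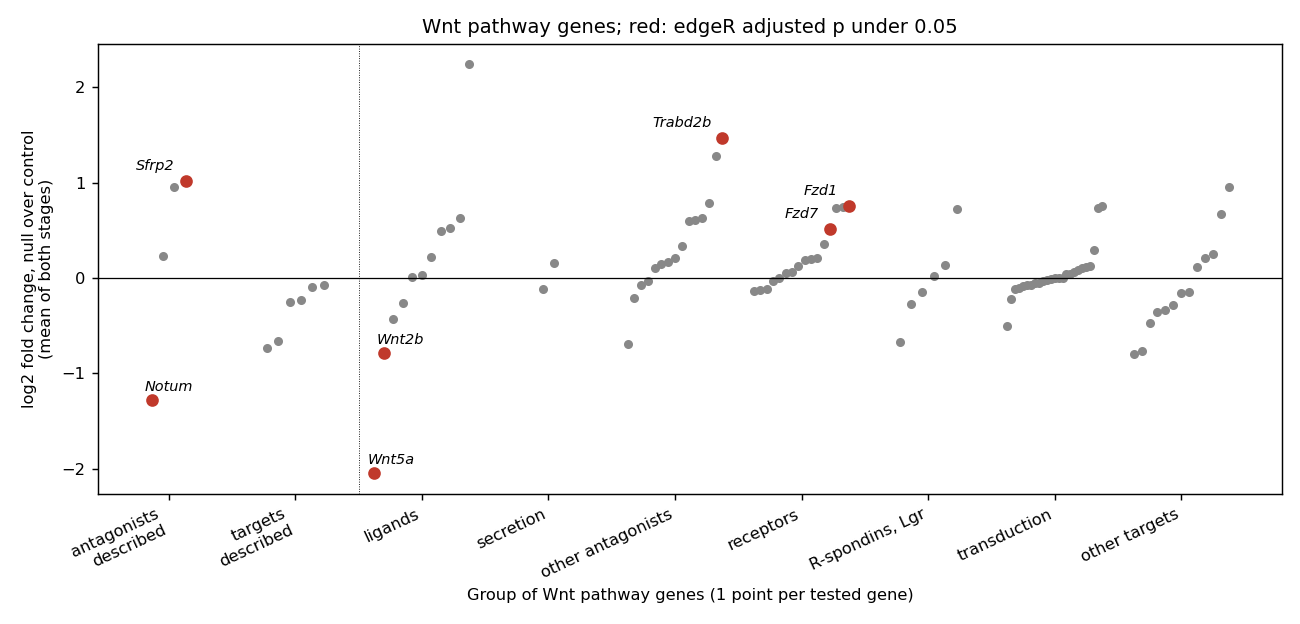
Log2 fold change of null-labelled over control libraries in the mean of both stages, for the 10 genes at left and the 88 other tested Wnt pathway genes by group; each point is 1 gene and red points passed an edgeR adjusted p of 0.05. Wnt5a, Notum and Wnt2b are the red points below 0 and Sfrp2, Trabd2b, Fzd1 and Fzd7 those above it.

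The genes whose levels most resembled those of an antagonist over the 10 libraries were found by Pearson's r of log2(CPM + 0.5) among 12122 genes with a mean of at least 5 CPM. These values describe 10 libraries that share groups, pool numbers and tissue mix, and no p is given. Nearest to Notum were Htra1, a secreted protease gene (r = 0.97), and Tbc1d2b (r = 0.966). Htra1 was at 22.0 to 22.3 CPM in E14.5 null-labelled libraries against 39.0 to 43.8 CPM in controls, and at 10.8 to 12.7 CPM in E13.5 null-labelled libraries against 38.7 to 49.3 CPM in controls. Nearest to Sfrp2 were Myl9, a myosin light chain gene of smooth muscle (r = 0.969), and Mgp, a matrix protein gene (r = 0.968). Mgp was at 28.5 to 59.3 CPM in E14.5 null-labelled libraries against 5.79 to 15.4 CPM in controls. Nearest to Sfrp1 were Zfp354c (r = 0.99) and Gpr161 (r = 0.983), and nearest to Wif1 were Atp6v1g1 (r = 0.964) and the myeloid gene Tyrobp (r = 0.96).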

How the data were processed

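Whole pancreas pools were sequenced as 10 poly(A) libraries in 4 groups of stage and Fgf9 label. The authors deposited raw read counts per gene. Per the submitters' processing notes, TopHat, HTSeq and DESeq2 were used with the mm10 build. The sources used here give neither their versions and roles nor the strand setting. The 10 genes and the lists were chosen with earlier results of these data known, and 1 listed pathway gene is not reported here. Named genes were all 10, every listed pathway gene called in a genotype comparison, up to 2 further genes per list by level, and the 2 genes most like each antagonist.

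Differences were tested by edgeR's quasi-likelihood F test (edgeR 4.0.16, R 4.3.3), with TMM factors and a mean per group, leaving 6 residual degrees of freedom. A low-count filter on the groups kept 18898 genes with 99.91% of the counts. Adjusted p-values are Benjamini-Hochberg values over all of these, read at 0.05. A standard error is the log2 fold change divided by the square root of F. Gene lengths and positions come from GENCODE M21 (GRCm38, the same assembly as mm10). The fit was tested on simulated data. Results were recomputed with DESeq2 1.42.0, with limma-voom (limma 3.58.1), with another normalization, without the filter, on the groups compared alone, with a replicate block, without each library in turn, and without both null-labelled libraries numbered 1.

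Whether pool numbers pair libraries was decided before calls were compared. Across genes, deviations from the group mean of null-labelled and control libraries with the same number correlated at 0.45 and 0.24 at E14.5 and at 0.41 and 0.17 at E13.5. These exceed 0.1, so the numbers were taken as pairing, on thin evidence: each null 2 library correlated better with control 3 (0.32 and 0.29). Deviations of null 1 and null 2 also mirror each other within a group, so the 2 values of a stage are not independent. Between stages the lowest correlation was 0.066, and no pairing was assumed. Replicate libraries differed by more than counting noise (chi-square per gene 12.2 to 48.6).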

Additional observations from a re-analysis of the deposited data

How the results depend on the processing

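The number of the 10 genes called, 2 in the mean of both stages, 1 at E13.5 and 0 in the other comparisons, moved as follows; the cause was not tested. DESeq2 gave 1 at E14.5, 2 at E13.5 and 1 between stages in controls. With limma-voom it was 0 at E13.5. No low-count filter, where the prior degrees of freedom became infinite, gave 1 at E14.5, 2 at E13.5, and 2 between stages in controls and in null-labelled libraries. Only the groups compared gave 2 at E13.5. The replicate block gave 2 at E14.5, 2 at E13.5, and 1 between stages in controls (Sfrp1, -0.95, edgeR adjusted p = 0.00171) and in null-labelled libraries (Sfrp1, -0.71, edgeR adjusted p = 0.0311), where the numbers are not taken as pairs. Leaving out both null-labelled libraries numbered 1 gave 0 at E13.5 and 0 in the mean. Leaving out 1 library gave 0 to 1 at E14.5, 0 to 2 at E13.5, 0 to 2 between stages in controls and 2 in the mean each time. For the other pathway genes, recounted like the marker lists after seeing the data, leaving out 1 library gave 0 to 4 called at E14.5, 1 to 3 at E13.5 (both highest without E14.5 control 1) and 3 to 8 in the mean, 3 without any 1 of the 5 E13.5 libraries and 8 without E14.5 null 2. DESeq2 gave 3, 6 and 11 of them in the same order, no filter 7, 10 and 13, limma-voom 0, 2 and 5, and only the groups compared 0 at E14.5 and 6 at E13.5, against 0, 1 and 5 in the fit reported. Without both null-labelled libraries numbered 1 it was 2 in the mean. The block changed no other call of the 10 genes.

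Signs turned only for estimates that did not pass, given here on the log2 scale. With limma-voom the sign turned for Sp5 at E13.5 (0.0077) and Axin2 at E14.5 (-0.0092). With the replicate block the sign turned for Sp5 at E13.5 (0.13), Rnf43 at E13.5 (0.11), Axin2 at E14.5 (-0.17) and Sfrp2 for the difference between stages (-0.046). Without both null-labelled libraries numbered 1 the sign turned for Sfrp1 at E13.5 (-0.052), Wif1 at E13.5 (-0.50), Sp5 at E13.5 (0.0064), Rnf43 at E13.5 (0.12), Sfrp1 at E14.5 (-0.15), Axin2 at E14.5 (-0.28), Sfrp1 in the mean (-0.10), Wif1 in the mean (-0.023) and Sfrp2 for the difference between stages (-0.48). Leaving out 1 library turned the sign for Axin2 at E13.5 (-0.37 to 0.037), Axin2 at E14.5 (-0.28 to 0.24), Axin2 in the mean (-0.22 to 0.041), Nkd1 at E14.5 (-0.37 to 0.16), Nkd1 in the mean (-0.24 to 0.023), Notum between stages in controls (-0.14 to 0.17), Rnf43 at E13.5 (-0.20 to 0.12), Sfrp1 at E13.5 (-0.048 to 0.27), Sfrp1 at E14.5 (-0.15 to 0.74), Sfrp1 in the mean (-0.025 to 0.42), Sfrp2 for the difference between stages (-0.44 to 0.53), Sp5 at E13.5 (-0.74 to 0.19) and Wif1 at E13.5 (-0.50 to 1.197); the ranges are over the 10 libraries left out. With 2 or 3 pools a group and 4 to 41 counts of Wif1 and 4 to 27 of Sp5 per library, these low genes had the widest intervals, together with Lef1.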
